A study of Mus musculus with 2 samples.

Results

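Genes of the insulin-like growth factor (IGF) axis were followed in mouse skin on 1 Affymetrix array after FGF18 treatment and 1 from a saline control. The 10 genes were Igf1, Igf1r, Irs1, Irs2, Igfbp2, Igfbp3, Igfbp4, Igfbp5, Igfbp6 and Igfbp7, taken by name, out of 22180 genes that the arrays measured with an unambiguous symbol. All 10 were measured, and 9 of them had a mean level at or above the median over all genes. None was 1.5-fold higher or lower on the FGF18 array. The differences ran from 1.35-fold higher for Irs2, a value that a further probe set does not share, to 1.33-fold lower for Igfbp3.

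Both labels give skin, male sex, an age of 7 weeks and the strain BALB/cAJcl, which is albino. For the FGF18 sample the series describes hair removal on the back to start the growth phase of the follicles (anagen), followed 6 days later by an injection into the peritoneum of 100 µg FGF18, a fibroblast growth factor, in saline with heparin at 5 µg/µl. The mice were irradiated with 6 Gy of γ-rays over the whole body 24 h after that, and the skin was removed when a further 4 h had passed. The other sample is labelled only as a saline control, and the labels do not say whether it was depilated, irradiated or given heparin, or how many mice each sample holds. A difference between the arrays therefore cannot be assigned to FGF18 alone, since treatment, animal and array cannot be told apart. Each group has 1 array, which leaves no replicates, no error between animals and no significance test, and every difference below is one between these 2 arrays.

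IGF1 is a secreted peptide that binds the receptor tyrosine kinase IGF1R. The activated receptor phosphorylates the adaptor proteins IRS1 and IRS2, which recruit PI3K and so activate AKT, and AKT in turn promotes mTOR activity and keeps FoxO transcription factors out of the nucleus. IGF binding proteins carry IGFs outside cells and either hold them away from the receptor or release them near it, often after cleavage by proteases. In skin, IGF1 made by dermal cells, including the dermal papilla of the hair follicle, acts on follicle epithelium, and it is known to prolong hair growth.

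The upstream sequences of the 5 members whose differences were largest in size are shown, since these carry what contrast the gene set holds. Each is the 250 bases before the transcription start in the RefSeq promoter table (build GRCm38.p6), 5′ to 3′ on the strand of the gene, and capitals mark the GC box GGGCGG on either strand. The window of Irs2 lies at chr8:11008930-11009179 on the minus strand, Igf1r at chr7:67952007-67952256 on the plus strand and Igfbp7 at chr5:77408046-77408295 on the minus strand, and these 3 genes read higher on the FGF18 array. The window of Igfbp2 lies at chr1:72824230-72824479 on the plus strand and Igfbp3 at chr11:7213924-7214173 on the minus strand, and these read lower.
Irs2: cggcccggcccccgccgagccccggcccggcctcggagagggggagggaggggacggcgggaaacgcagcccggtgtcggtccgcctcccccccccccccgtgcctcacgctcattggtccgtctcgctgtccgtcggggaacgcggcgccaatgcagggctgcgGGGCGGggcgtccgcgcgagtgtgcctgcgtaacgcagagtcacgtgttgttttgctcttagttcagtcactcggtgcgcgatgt
Igf1r: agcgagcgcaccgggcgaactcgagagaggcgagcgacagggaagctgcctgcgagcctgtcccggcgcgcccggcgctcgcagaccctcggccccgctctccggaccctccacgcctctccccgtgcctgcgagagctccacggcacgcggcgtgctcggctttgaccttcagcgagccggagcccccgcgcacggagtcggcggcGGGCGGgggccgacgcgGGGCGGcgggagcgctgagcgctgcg
Igfbp7: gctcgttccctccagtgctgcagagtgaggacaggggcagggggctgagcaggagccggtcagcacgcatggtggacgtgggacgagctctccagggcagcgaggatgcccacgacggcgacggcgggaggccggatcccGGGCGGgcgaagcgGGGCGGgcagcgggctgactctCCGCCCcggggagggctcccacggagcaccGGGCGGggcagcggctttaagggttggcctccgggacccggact
Igfbp2: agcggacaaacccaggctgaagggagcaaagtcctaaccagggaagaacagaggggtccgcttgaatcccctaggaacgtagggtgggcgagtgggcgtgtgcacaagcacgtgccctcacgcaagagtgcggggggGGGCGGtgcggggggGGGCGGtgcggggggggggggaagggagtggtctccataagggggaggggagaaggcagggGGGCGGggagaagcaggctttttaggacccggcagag
Igfbp3: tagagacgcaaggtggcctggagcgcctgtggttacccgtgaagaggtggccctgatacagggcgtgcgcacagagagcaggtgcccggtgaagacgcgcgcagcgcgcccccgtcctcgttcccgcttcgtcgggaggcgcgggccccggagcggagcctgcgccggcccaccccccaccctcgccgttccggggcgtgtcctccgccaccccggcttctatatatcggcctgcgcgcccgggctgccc

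The GC box, bound by Sp1-type factors, occurred once in the Irs2 window, at 2 positions in that of Igf1r, at 4 in that of Igfbp7 and at 3 in that of Igfbp2, and was not found in that of Igfbp3. Among these 5 windows, Igfbp2 and Igfbp3, which both read lower, thus differ from each other in this motif. The windows not shown did not split by direction either. Irs1, which read lower, had 2 GC boxes, and Igf1, Igfbp4, Igfbp5 and Igfbp6, which read higher, had none. These matches hold for the starts used only. The Igfbp3 window lies inside the RefSeq span of its gene (chr11:7206086-7215498), and Igfbp2 has 2 listed starts, of which 1 was used. The windows of Igf1 and Igfbp4 likewise lie inside the spans of their genes. Over all 10 members, 5 windows held a GC box, against 32.7% of the 32851 upstream windows in the table. The TATA box TATAAA, on either strand, was in 2 member windows, those of Igfbp4 and Igfbp6, and in 12.4% of all windows. The FoxO site TGTTTAC, on either strand, was in none of the member windows and in 3.17% of all windows. No motif match overlapped another kind, and a match describes the letters only.

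Values are intensities on a linear scale, and differences are FGF18 minus saline of log2(intensity + 1), a scale on which folds of dim genes are understated. The level of one gene cannot be set against that of another, because each is read by its own probes. Genes at or above the median mean level of 4.15 on the log2 scale, which is an intensity of 16.7, are called counted genes, and there were 11090 of them. Of the counted genes, 8.28% differed at least 1.5-fold between the arrays, 3.64% being higher and 4.63% lower on the FGF18 array. With a smooth trend of difference on level subtracted, these shares were 2.41% and 5.86%. Of the 9 counted members 0 were higher and 0 lower by 1.5-fold, a number too small to set apart from those shares. It follows that none differed 2-fold, beside 2.03% of counted genes. The only spread that 2 arrays allow is that between probe sets of the same gene, which had an SD of 0.25 log2 units over 319 genes with at least 2 counted clusters. It says nothing about variation between animals.

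**Figure D1:**
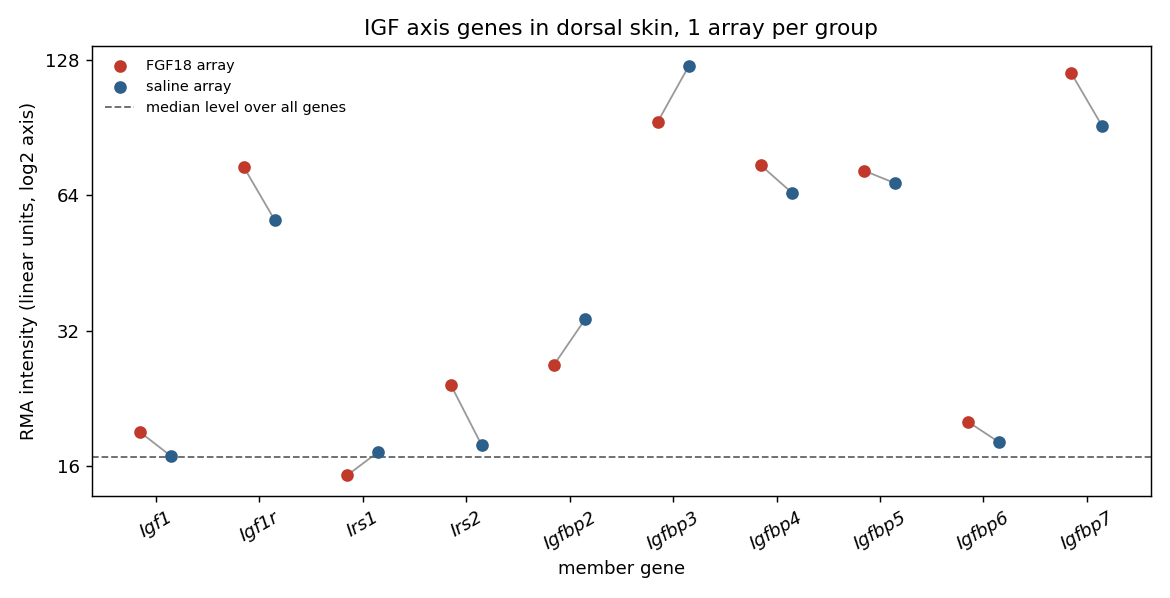
RMA intensity of each member on the FGF18 array (red, left of each pair) and the saline array (blue, right), on a log2 axis, with the dashed line at the intensity of the median level over all genes (16.7). The points are single arrays with no error, Igfbp2, Igfbp3 and Irs1 slope upward to saline, and the other 7 slope downward.

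The ligand gene was near equal on both arrays, and its receptor was modestly higher on the FGF18 array. Igf1 had an intensity of 19.0 on the FGF18 array and 16.8 on the saline array, a difference of 0.17 log2 units or 1.12-fold, and both values lay close to the median level over genes. This difference is smaller than the spread between probe sets of a gene, and 36.1% of counted genes had a higher one. Igf1r, which encodes the signalling receptor for IGF1 and IGF2, had an intensity of 74.1 on the FGF18 array and 56.4 on the saline array, a difference of 0.39 or 1.31-fold. It was thus the FGF18 array that read higher, and 12.1% of counted genes stood higher than Igf1r. In a sample of whole skin, fewer cells of a type and less RNA per cell cannot be told apart.

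The adaptor genes read in opposite directions, and each has probe sets that differ. Irs2, the adaptor whose gene is a known FoxO target in liver, had an intensity of 24.3 on the FGF18 array and 17.8 on the saline array, a difference of 0.43 or 1.35-fold. Among the 10 members this was the highest difference, and 9.50% of counted genes had a higher one. A separate probe set annotated to both Irs2 and 9530052E02Rik, which was not used because it carries 2 symbols, read 9.95 on the FGF18 array and 12.6 on the saline array, a difference of -0.31. Both its values were below the array medians of 13.8 for FGF18 and 14.0 for saline. Averaging that probe set in brings the difference of Irs2 to 0.06.

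Irs1, the other adaptor, averaged 15.2 on the FGF18 array and 17.2 on the saline array over its 2 probe sets (averaged on the log2 scale), a difference of -0.16. Its mean level of 4.10 lay just under the median over genes, so it is the member that was not counted. The brighter probe set read 35.6 on the FGF18 array and 36.7 on the saline array, a difference of -0.04, and the dimmer one read 6.18 on the FGF18 array and 7.75 on the saline array, both below the array medians. On its brighter probe set, then, Irs1 was at nearly the same level on both arrays.

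Of the 6 binding protein genes, 4 were higher and 2 lower on the FGF18 array, beside 59.4% of all counted genes above 0. So small a number cannot be set apart from that share. Igfbp3 encodes the main IGF carrier of blood plasma, a protein that also acts on cells without IGF and whose gene is a known p53 target in human cells. Its intensity was 93.2 on the FGF18 array and 124 on the saline array, a difference of -0.41 or 1.33-fold lower, and 8.40% of counted genes had a lower one. Igfbp2, which carries an integrin-binding motif, had an intensity of 26.9 on the FGF18 array and 33.9 on the saline array, a difference of -0.33 or 1.25-fold lower. These are the lowest differences among the members, and each is larger than the 0.25 spread between probe sets of a gene. Differences of that size were common, since 19.1% of counted genes had one larger in size than Igfbp3 and 28.4% one larger than Igfbp2.

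Igfbp7 stood at the other end of the family. It encodes a secreted protein that binds IGFs weakly, binds insulin, and is abundant around blood vessels. Its intensity was 120 on the FGF18 array and 91.2 on the saline array, a difference of 0.39 or 1.31-fold, and 88.0% of counted genes stood lower. The remaining 3 binding protein genes differed by less than the spread between probe sets. Igfbp4, which encodes an inhibitor of IGF action that the protease PAPP-A cleaves, read 74.7 on the FGF18 array and 64.9 on the saline array, a difference of 0.20. Igfbp5, which encodes a binding protein that adheres to extracellular matrix, read 72.6 on the FGF18 array and 68.1 on the saline array, a difference of 0.09. Igfbp6, which encodes the binding protein that prefers IGF2, read 20.04 on the FGF18 array and 18.0 on the saline array, a difference of 0.14. These 3 genes had slightly higher values on the FGF18 array, and the sign for Igfbp5 turned to -0.01 when the trend was subtracted.

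**Figure D2:**
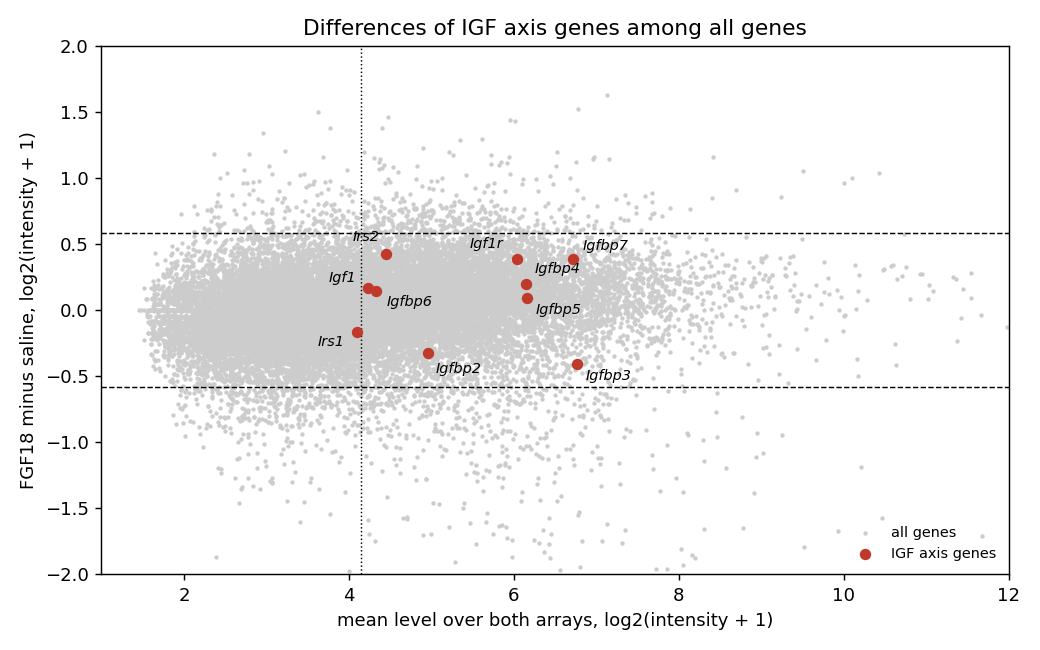
Difference (FGF18 minus saline, log2) against mean level over both arrays for all 22180 genes (grey) and the 10 IGF axis genes (red), with dashed lines at 1.5-fold and a dotted line at the median level. All 10 members lie between the dashed lines, from Igfbp3 at -0.41 to Irs2 at 0.43, and 45 genes lie outside the axes.

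Over all 10 members the median difference was 0.16, with 7 above 0 and 3 below, beside a median of 0.07 over counted genes, of which 59.4% lay above 0. With the counted genes centred on 0, the members' median was 0.08. At a lower threshold of 1.2-fold, which was added with the values known, 3 members were higher (Igf1r, Irs2 and Igfbp7), beside 23.9% of counted genes, and 2 were lower (Igfbp2 and Igfbp3), beside 14.2% of counted genes. The place of Irs2 among these is lost, at 0.06, when its probe set with several symbols is averaged in.

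**Figure D3:**
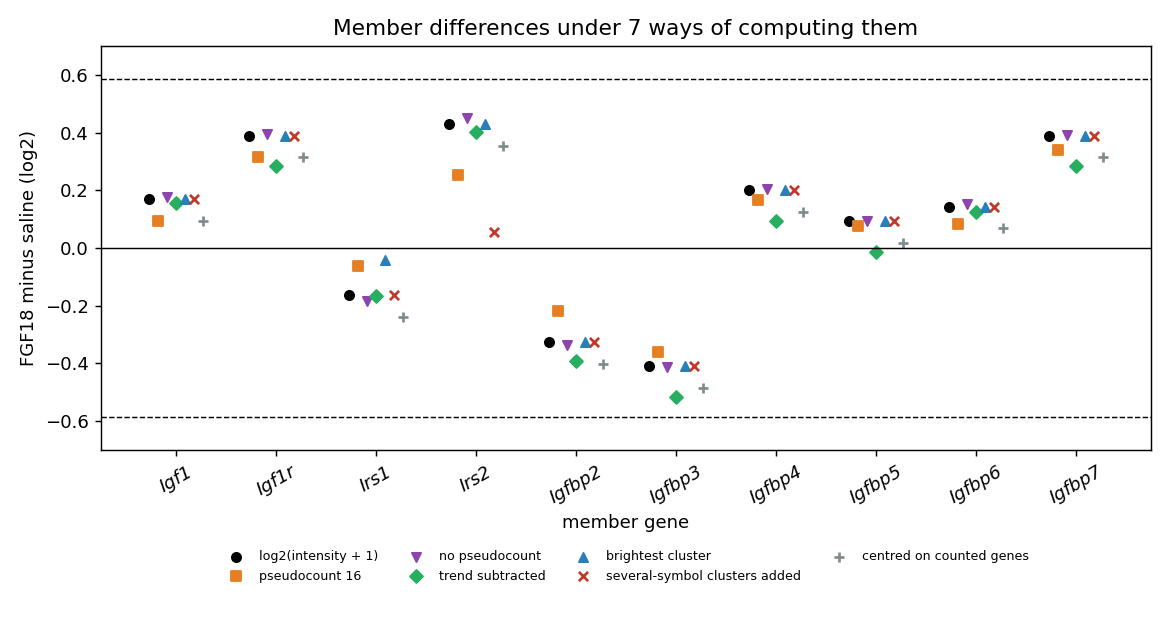
Difference of each member (FGF18 minus saline, log2) under 7 ways of computing it, 1 symbol per setting, with dashed lines at 1.5-fold. Irs2 moves from 0.43 to 0.06 when the probe set with several symbols is added, Igfbp5 crosses 0 when the trend is subtracted, and no point passes 1.5-fold.

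Other genes of the pathway were read from 8 lists that held 82 further genes, of which 76 were measured and 61 counted. Of the counted ones, 7 were at least 1.5-fold higher on the FGF18 array (Htra3, Pik3r3, Eif4ebp1, Fbxo32, Trim63, Pdk4 and Bnip3), beside the 3.64% of all counted genes, and 0 were at least 1.5-fold lower, beside 4.63%. Of these 7, the 3 with the largest differences (Pdk4, Fbxo32 and Trim63) are genes induced in fasting or wasting muscle, and they were known from earlier results to be high when the lists were drawn up. All 8 lists were chosen with earlier results of these data known, so the count of 7 cannot show an excess over all counted genes. With a pseudocount of 16, only Fbxo32, Trim63 and Pdk4 stayed past 1.5-fold, beside 1.07% of counted genes at least 1.5-fold higher.

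The second ligand and the clearance receptor ran in opposite directions. Igf2, which encodes the fetal IGF ligand, read 23.3 on the FGF18 array and 30.2 on the saline array, a difference of -0.36. Igf2r, whose product takes IGF2 into lysosomes, read 57.6 on the FGF18 array and 44.7 on the saline array, a difference of 0.36. The insulin receptor gene Insr read 41.0 on the FGF18 array and 36.5 on the saline array, a difference of 0.16, in the same direction as Igf1r and smaller. Insrr and Ins2 were below the median level.

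Genes of other carriers, of proteases that act on binding proteins and of protease inhibitors split by level. All 6 counted genes of this list were higher on the FGF18 array, beside 59.4% of all counted genes, whereas of the 6 genes below the median level 4 were lower. A lean with level was not particular to this list, since the median difference was 0.07 over counted genes and 0 over all genes. The list's median over its 12 measured members was 0.21, and 0.12 with the trend subtracted. Htra3, a secreted serine protease gene, read 23.6 on the FGF18 array and 14.9 on the saline array, which is 1.55-fold on the log2(intensity + 1) scale and 1.28-fold with a pseudocount of 16. Pappa2, whose protein cleaves IGFBP3 and IGFBP5, had a difference of 0.49. Adam9, at 0.20, was the lowest of the counted genes of the list. Pappa, which encodes the protease that cleaves IGFBP4, was at 0.22, within the spread between probe sets. Igfbp1, the liver-type binding protein gene, read 10.2 on the FGF18 array and 17.4 on the saline array, a difference of -0.72. This was the lowest difference in the pathway lists, but its FGF18 value was below the array median and it was not among the counted genes.

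Growth hormone genes, which control Igf1 in liver, had 2 counted members higher and 3 lower. The growth hormone receptor gene Ghr had the lowest difference, with 33.6 on the FGF18 array and 45.0 on the saline array (-0.41), and Stat5a had the highest at 0.08. Among receptor adaptors and inhibitors, 6 counted genes were higher and 4 lower, from Socs3, a feedback inhibitor gene, at -0.27 to Shc1, an adaptor that leads to the MAP kinase branch, at 0.22. Both lists stayed inside 1.5-fold, and beside their counts 59.4% of all counted genes lay above 0.

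Downstream, PI3K and AKT genes were mixed, with 6 counted members higher and 5 lower, beside 59.4% of all counted genes above 0. Pik3r3, a regulatory subunit gene of PI3K, read 75.2 on the FGF18 array and 49.1 on the saline array, which is 1.52-fold, or 1.41-fold with the trend subtracted. Pik3cb, a catalytic subunit gene, read 76.8 on the FGF18 array and 109 on the saline array, a difference of -0.49. Akt1 and Akt2 had differences of 0.32 and 0.23.

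The measured genes of the mTOR list all read higher on the FGF18 array. Its 9 genes had a median difference of 0.29, and beside them 59.4% of counted genes lay above 0. Eif4ebp1, which encodes a translation repressor that mTOR inactivates, led with 78.9 on the FGF18 array and 49.4 on the saline array, which is 1.59-fold, or 1.47-fold with the trend subtracted. Rptor, the gene of the raptor subunit, had a difference of 0.47 and Ddit4, which encodes an inhibitor of mTOR, one of 0.36. Mtor itself was the lowest at 0.02. With the trend subtracted, 7 of the 9 genes lay above 0, beside 49.7% of counted genes. The list mixes activators and inhibitors of mTOR.

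Of the FoxO factor genes, Foxo4 was higher on the FGF18 array and the others differed little. The largest differences in these lists were those of Pdk4, Fbxo32 and Trim63, 3 genes that FoxO factors are known to induce. These 3 were known to be high when the lists were drawn up, so their place at the top was known in advance. Foxo1 read 42.3 on the FGF18 array and 41.9 on the saline array, a difference of 0.01, Foxo3 was at -0.18, Foxo6 at -0.16 and Foxo4 at 0.48. Fbxo32, a ubiquitin ligase gene of muscle atrophy, read 184 on the FGF18 array and 63.4 on the saline array, and Trim63, another, read 101 on the FGF18 array and 36.5 on the saline array. Pdk4, which restrains glucose oxidation, read 245 on the FGF18 array and 78.4 on the saline array, a difference of 1.63. Bnip3, a mitophagy gene, was 1.57-fold higher, or 1.46-fold with the trend subtracted. Other genes of the list did not share this, with Txnip at 0.07, Ccng2 at 0.03, Bcl6 at -0.35 and Cited2 at -0.44, the lowest counted gene. The list's median was 0.07 over 17 measured genes, and -0.04 with the trend subtracted. Irs2, itself a FoxO target in liver, stood at 0.43, or at 0.06 with its probe set of 2 symbols averaged in. The part of FoxO factors in these differences was not tested.

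Igf2bp3 was the single gene of the IGF2 mRNA binding proteins with a usable probe set, and it read 19.4 on the FGF18 array and 18.5 on the saline array.

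**Figure D4:**
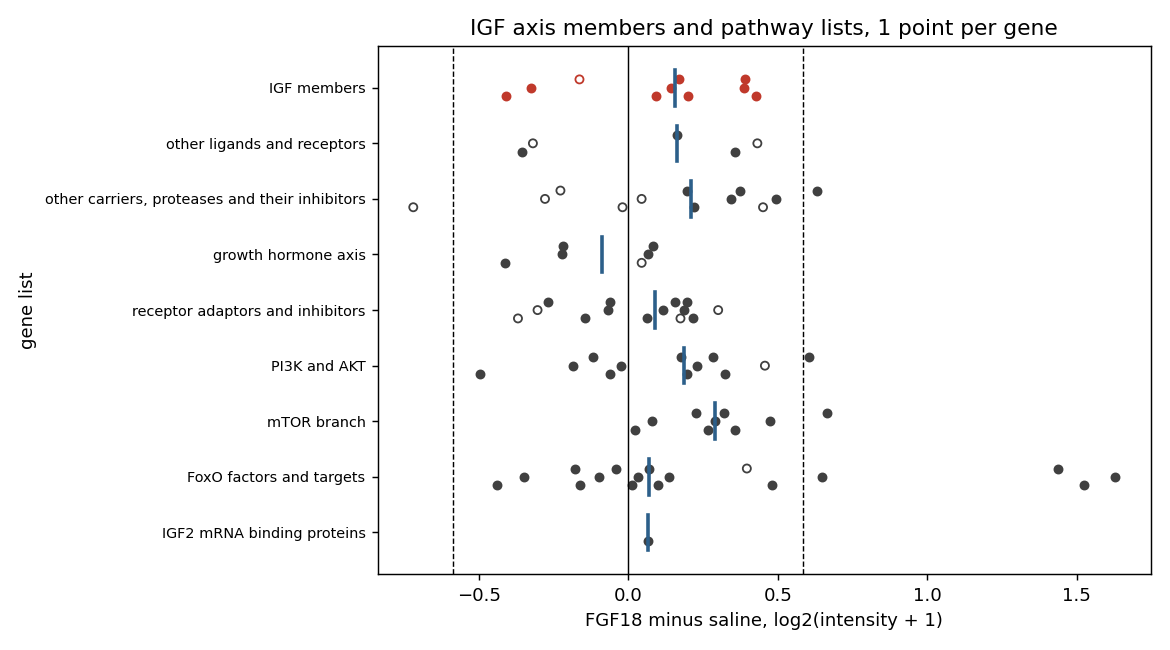
Difference (FGF18 minus saline, log2) of each gene in the member list (red) and in 8 pathway lists (grey), with filled points for genes at or above the median level, open points for genes below it, blue bars at list medians and dashed lines at 1.5-fold. Pdk4, Fbxo32 and Trim63 stand alone on the right, all 9 mTOR genes lie right of 0, and the members lie within 1.5-fold.

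Markers of some skin cell types differed between the arrays by far more than the IGF genes did. Skin is the labelled tissue, and all marker lists of skin cell types had measured members. The counts of higher markers below stand beside 59.4% of all counted genes above 0. All 10 differentiated keratinocyte markers read lower on the FGF18 array, with a median difference of -1.93 and a summed intensity of 4509 there and 17111 on the saline array. Of 9 inner root sheath markers 8 were higher, with a median of 0.96 and sums of 6267 on the FGF18 array and 3176 on the saline array. Sums follow the brightest probe sets of a list, so they can run against its median. Fibroblast markers, from a cell type that makes several binding proteins, had 4 of 9 members higher, a median of -0.25 and sums of 1240 on the FGF18 array and 1283 on the saline array. Dermal papilla markers had 7 of 11 members higher, a median of 0.20 and sums of 662 on the FGF18 array and 499 on the saline array. Skeletal muscle markers had 4 of 11 members higher, a median of -0.10 and sums of 5453 on the FGF18 array and 5930 on the saline array. Adipocyte markers had 3 of 9 measured members higher and a median of -0.09, with sums of 792 on the FGF18 array and 616 on the saline array. Endothelial markers had 5 of 8 higher and a median of 0.21, with sums of 111 on the FGF18 array and 116 on the saline array. Only 3 of the endothelial markers were at or above the median level, and of these 1 was higher and 2 were lower. Basal keratinocyte markers had 5 of 6 measured members higher and a median of 0.25, with sums of 1398 on the FGF18 array and 1424 on the saline array. The other one, Krt14, was 1.75-fold lower and the only marker of this list past 1.5-fold. Smooth muscle and pericyte markers had 4 of 7 higher and a median of 0.24, with sums of 258 on the FGF18 array and 226 on the saline array. Macrophage markers had 7 of 9 higher and a median of 0.24, with sums of 251 on the FGF18 array and 198 on the saline array. Some markers of other lists were also below the median level. Of those at or above it, 6 were higher and 3 lower for dermal papilla and 3 higher and 5 lower for adipocytes. For smooth muscle and pericytes 3 were higher and 2 lower, and for macrophages 6 were higher and 0 lower. No marker was at 0 on either array, but neither was any other value, the lowest being 1.44 for FGF18 and 1.39 for saline. This therefore does not show that a cell type was detected. The part of these cell types in the values of the IGF genes was not tested.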

How the data were processed

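Per the labels, skin RNA isolated with Trizol was biotin-labelled with the GeneChip WT PLUS reagents. Affymetrix Expression Console and RMA are the tools in the submitters' processing notes, without versions. The intensity values the authors deposited are linear and not log2, which was inferred from their range of 1.44 to 11532 for FGF18 and 1.39 to 11488 for saline. Arrays have no read depth, and 1 array per group limits the precision.

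Of 41345 transcript clusters, 23521 had exactly 1 symbol in the platform annotation, and clusters of a symbol were averaged as log2(intensity + 1), giving 22180 genes. All 10 members matched the RefSeq gene table by symbol. Python 3.11.15 and pandas 2.3.3 were used, with statsmodels 0.14.6 for a lowess trend (span 0.3). The averaging and the fold call were checked on a simulated array with known folds. This checks the computation only and does not measure how reliable a fold between the real arrays is.

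No significance test was run. Differences were described against all genes, with 1.5-fold as the threshold, 2-fold and 1.2-fold beside it. Named genes were all members, and of each pathway list the genes past 1.5-fold and the highest and lowest difference, all at or above the median level. Akt1, Akt2, Insr, Pappa, Pappa2, Igfbp1, Rptor, Ddit4, Foxo1, Foxo3, Foxo4, Txnip, Ccng2, Bcl6, Foxo6, Insrr and Ins2 were named besides, after their values were seen. The members and lists were chosen with earlier results of these data known. Alternatives were other pseudocounts, centring, trend subtraction, the brightest cluster, clusters with several symbols and other filters on level.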

Additional observations from a re-analysis of the deposited data

How the results depend on the processing

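No member was 1.5-fold higher or lower under any of the pseudocounts of 16 or none, centring on all or on counted genes, trend subtraction, the brightest cluster, clusters with several symbols, no filter on level, or a filter at the 75th percentile, and a 2-fold threshold could add none. With a 1.2-fold threshold, chosen after seeing the data as was centring on counted genes, 3 members were higher and 2 lower. The median over members ran from 0.08 with counted genes centred on 0 to 0.20 over the 5 members that passed the 75th percentile, and the mean was 0.09. Of 70 member differences recomputed under 7 alternatives, 28 equalled the value reported, since centring on all genes subtracts 0 and few members have further clusters. Of the other 42, 1 changed sign (Igfbp5, -0.01 with the trend subtracted) and 1 moved by more than the spread between probe sets (Irs2, 0.06 with the cluster of several symbols). At the median filter, members counted ranged from 8 with clusters of several symbols to 10 with a pseudocount of 16 or the brightest cluster. Of the 7 pathway genes past 1.5-fold, 3 stayed so with a pseudocount of 16 and 4 with the trend subtracted or with counted genes centred on 0. The share of all counted genes at least 1.5-fold higher fell as well, from 3.64% to 1.07% with a pseudocount of 16. It was 2.41% with the trend subtracted and 2.37% with counted genes centred on 0. No paired analysis was possible because each group has 1 array. No replicate could be left out for the same reason. Low intensities limit Igf1, Igfbp6, Irs1 and Irs2, whose values lay near or little above the array medians.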
